A study of Aspergillus nidulans with 8 samples.

Results

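This account describes 149 genes of Aspergillus nidulans, of 10550 on the array, whose transcript level was higher after CdCl2 on the arrays without a signal for atfA and under the limit for a change on the arrays with one. They were chosen by their measured values. A gene was taken when its CdCl2 array stood at least 3-fold above its untreated array under the label reference, and by a log2 difference of less than 0.58, which is 1.5-fold, under the label deletion. Its probe also had to be well above background on 50% or more of its spots on the CdCl2 array labelled reference. The CdCl2 and untreated values of these 4 arrays are therefore a description of the choice, and no test was made on them.

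The study set a strain deleted for atfA against a reference strain in 4 conditions. By the labels, the reference is THS30.3 (pyrG89, AfupyrG+; pyroA+; veA+) and the deletion strain is TNJ 92.4 (pyrG89, AfupyrG+; pyroA4; ΔatfA::pyroA; veA+), so both carry a pyrG gene of Aspergillus fumigatus and veA+. Cultures grown for 16 h were treated for 0.5 h with CdCl2 at 0.2 mM, with the polyene amphotericin B (AmB), a ligand of membrane sterols, at 2 mM, or with Congo Red, which stains and disturbs cell wall polysaccharides, at 10 mM, or were left untreated. Doses and units are those of the labels alone, and whether a micro sign was lost from the AmB and Congo Red doses, which would make them far too high, could not be checked. Every array stood for 1 strain label in 1 condition and was hybridised with RNA pooled from 3 cultures, so the spread between cultures was not measured. Levels below are log2 signals relative to the 75th percentile of their own array, and a change is a difference of 2 such levels, so that 3-fold and 1.5-fold stand for the thresholds of the choice.

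AtfA is a bZIP transcription factor of the CREB type that acts in the fungal stress response with the mitogen-activated protein kinase SakA. Cadmium binds the thiol groups of proteins and glutathione and leads to misfolded protein. Misfolded protein is met by the heat shock chaperones: Hsp70 binds unfolded chains, Hsp90 completes the folding of many kinases and receptors, and cochaperones such as Sti1 pass clients from one to the other.

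The atfA probe ran against the strain labels. Its processed signal, in scanner units, was 3.09, 2.3, 2.38 and 2.55 on the CdCl2, AmB, Congo Red and untreated arrays labelled reference, where it was not well above background. On the deletion-labelled arrays it was 9.71e+03, 3.27e+03, 8.67e+03 and 7.6e+03 in the same order of conditions. The sets are therefore called the reference-labelled arrays, which lacked the atfA signal, and the deletion-labelled arrays, which had it. In the value table that the authors deposited beside the scanner files the labels ran the other way, with log2 atfA values of 6.19 to 6.26 in the deletion columns and 13.66 to 14.6 in the reference columns. Pyridoxine gene pyroA, which the labels give as intact in the reference and as mutant with a pyroA insert in the deletion strain, was at 3.12 to 4.88 on the reference-labelled arrays and at 1.68 to 2.06 on the deletion-labelled ones.

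A further disagreement concerns the treatment labels of the arrays with the atfA signal. Across 7105 genes well above background on all 8 arrays, the change between CdCl2 and untreated in the value table followed that of the scanner files with Pearson's r = 0.98 for the arrays without the atfA signal, and with r = -0.96 for those with it. These are correlations across genes, which are not independent replicates. The CdCl2 and untreated labels of that pair are thus opposite in the 2 sources, and the sources used here do not settle which is right. The scanner files' labels are used below, and every change with CdCl2 under the label deletion turns its sign if the pair is exchanged. With the pair exchanged, 129 of the 149 genes still had a change under 0.58, and the other 20 did not. In the value table the members' change had a median of 1.50 and a range of 0.46 to 4.72 in the columns without the atfA signal, and a median of 0.01 and a range of -0.50 to 0.84 in the columns with it, where 145 lay under 0.58. The plot of both sources shows the opposite signs.

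**Figure D1:**
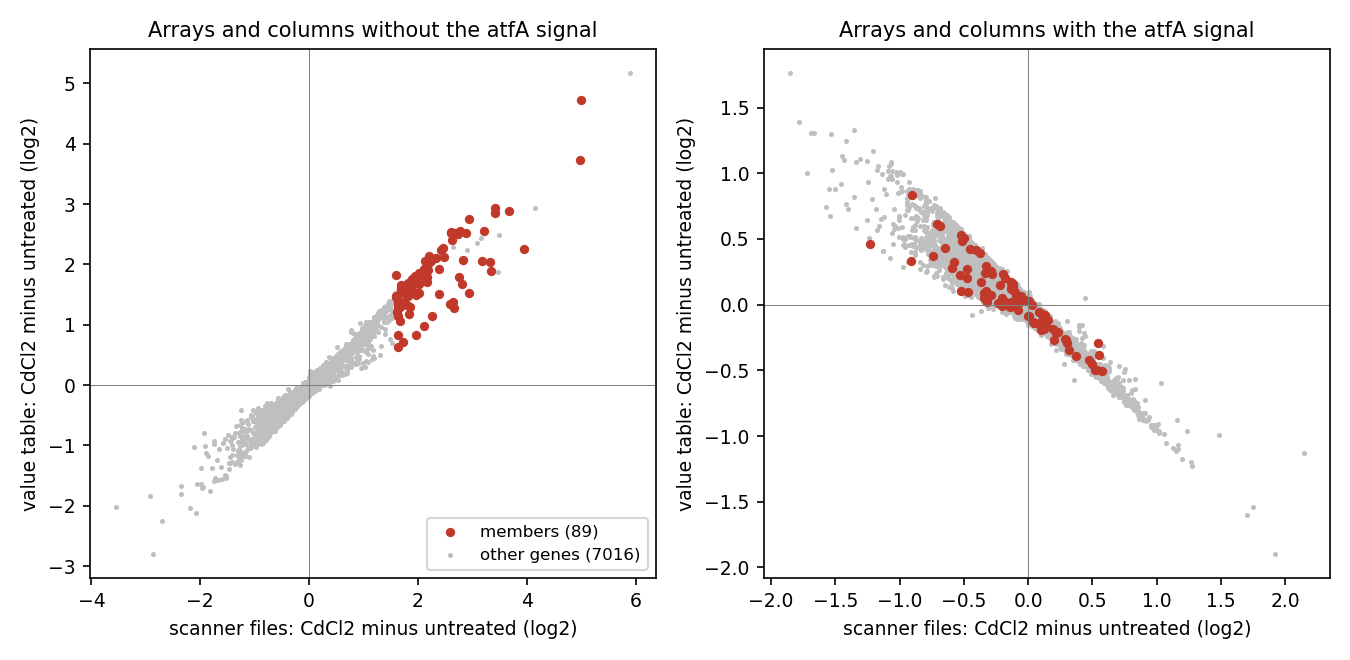
Each point is a gene, with its change between CdCl2 and untreated (log2) in the scanner files on the horizontal axis and in the authors' value table on the vertical axis, for the arrays without the atfA signal (left) and with it (right). The 7105 genes well above background on all 8 arrays are drawn, 89 of them members, in colour. The points run upward on the left (r = 0.98) and downward on the right (r = -0.96).

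The number of genes that passed the rise was unequal under the strain labels. Of 7939 genes well above background on the CdCl2 array labelled reference, 192 (2.42%) stood 3-fold or more above untreated, and 149 (1.88%) also met the limit under the label deletion. Of 8478 genes well above background on the CdCl2 array labelled deletion, 12 (0.142%) stood 3-fold or more above untreated. With that pair exchanged the count would be 24 (0.292%) of 8228 genes. For both strain labels the CdCl2 and untreated arrays lay on the same slide, and each label had its own slide, so slide and strain label cannot be told apart in this contrast. In RNA of whole cultures, more transcript per cell and more cells of one kind cannot be told apart. The 43 genes that were past 3-fold and were not members had median changes of 2.64 on the reference-labelled arrays and 0.87 on the deletion-labelled ones.

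Among the members the change on the reference-labelled arrays had a median of 2.16, with 88 genes at 2 or more and 31 at 3 or more. With the members that were not well above background when untreated set at their lower bound, described below, the median was 2.07, and the highest change among the others was 4.99. On the deletion-labelled arrays it had a median of -0.12 and a range of -1.23 to 0.58. Over all 7939 genes the medians were -0.02 and -0.05. Under the label deletion, 57 members (38.3%) were above 0 and 92 (61.7%) below, where 43% and 57% of the 7939 genes were, and with the pair exchanged these counts change places. Of the members, 20 (13.4%) were under -0.58, against 614 (7.73%) of the 7939 genes. With the pair exchanged these 20 are the members that would not have been chosen. At the threshold of the rise, wos2, AN1781 and sti1 were just inside at 1.597, 1.602 and 1.604, and AN3180, AN12401 and hsp78 just outside at 1.573, 1.57 and 1.567. At the limit under the label deletion, AN5426, AN1300 and AN5453 were just inside at 0.579, 0.578 and 0.558, and AN10332, AN12294 and AN8996 just outside at 0.596, 0.615 and 0.616.

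**Figure D2:**
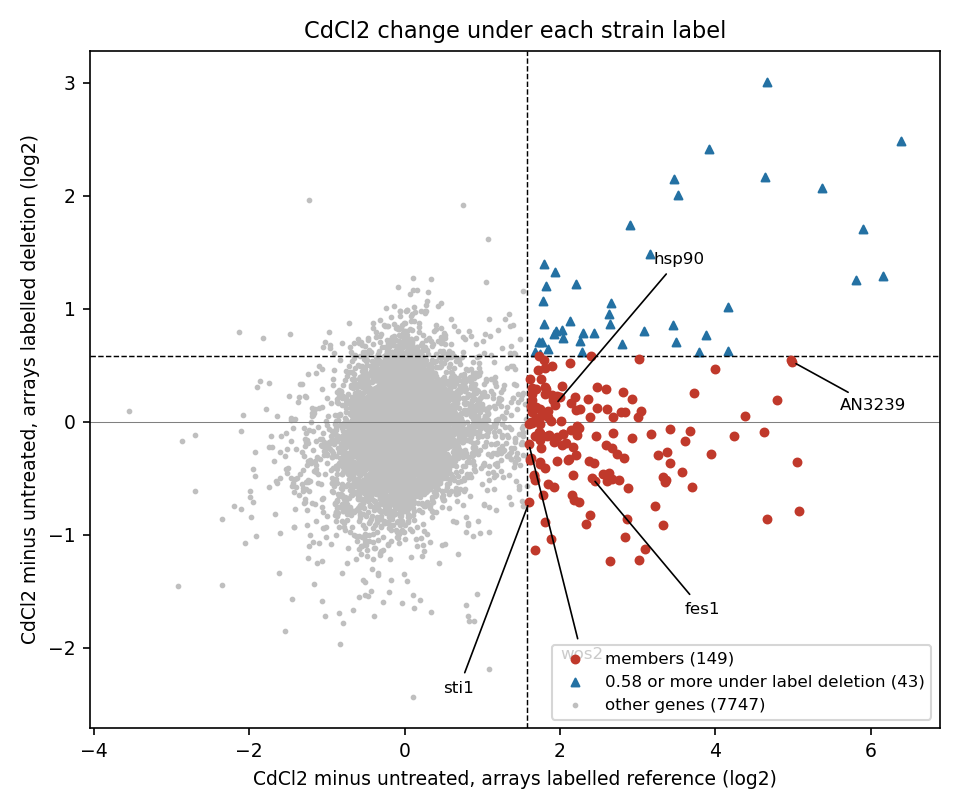
Each point is a gene well above background on the CdCl2 array labelled reference, with its change between CdCl2 and untreated (log2) under the label reference (horizontal) and under the label deletion (vertical), and dashed lines at the thresholds of 3-fold and 1.5-fold. The 149 members lie right of the vertical line and under the horizontal one, and the 43 other genes past 3-fold above it.

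Of the 149 members, 142 were matched to a RefSeq locus tag and 8 had a gene symbol there. Of these 8, 4 encode parts or partners of the cytosolic chaperone machinery. The gene hsp90, for the chaperone itself, was at 4.32 after CdCl2, 2.50 after AmB, 2.11 after Congo Red and 2.39 untreated on the reference-labelled arrays. Its levels on the deletion-labelled arrays were 2.64, 3.56, 2.35 and 2.48 in that order. The CdCl2 array labelled reference was thus the highest of the 8, and its change with CdCl2 was 1.94 under the label reference and 0.15 under the label deletion.

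The gene fes1, which bears the name of a nucleotide exchange factor of Hsp70 in yeast, was at 2.56, 3.83, 1.68 and 0.14 (CdCl2, AmB, Congo Red, untreated) on the reference-labelled arrays. Under the label deletion it was at 0.41, 3.52, 1.23 and 0.91. Both AmB arrays were above every other array for this gene. Its change with CdCl2 was 2.42 under the label reference and -0.50 under the label deletion. The cochaperone gene sti1 was at 1.22, 0.48, -0.58 and -0.38 on the reference-labelled arrays, and at -0.97, 0.70, -0.73 and -0.26 on the deletion-labelled ones, so that its changes with CdCl2 were 1.60 and -0.71. With the pair of arrays labelled deletion exchanged, sti1 would exceed the limit.

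The gene wos2, named after a p23-type cochaperone of Hsp90 in fission yeast, was at 6.47, 4.76, 5.09 and 4.87 (CdCl2, AmB, Congo Red, untreated) under the label reference. On the deletion-labelled arrays it was at 5.07, 5.49, 5.28 and 5.27. Here 7 of the 8 arrays lay within 4.76 to 5.49, and the CdCl2 array labelled reference stood outside them. In the value table the changes with CdCl2 in the columns without the atfA signal were 1.81 for hsp90, 2.24 for fes1, 1.48 for sti1 and 1.83 for wos2.

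The list of cytosolic and mitochondrial chaperone genes with a symbol held 7 genes, of which hsp90, fes1 and sti1 are members. All 7 had a change of 1 or more on the reference-labelled arrays, where 382 of the 7939 genes (4.81%) did, and the list's median was 1.57. None reached 1 on the deletion-labelled arrays, where 38 genes (0.479%) did, and the median there was -0.21. The changes under the labels reference and deletion were 1.57 and 0.03 for hsp78, a mitochondrial disaggregase, 1.44 and -0.28 for hsp70, 1.24 and 0.27 for the mitochondrial chaperonin hsp60, and 1.25 and -0.21 for hsp88, of the Hsp110 family. Since 3 of these genes are members by the rule itself, the count is a description.

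**Figure D3:**
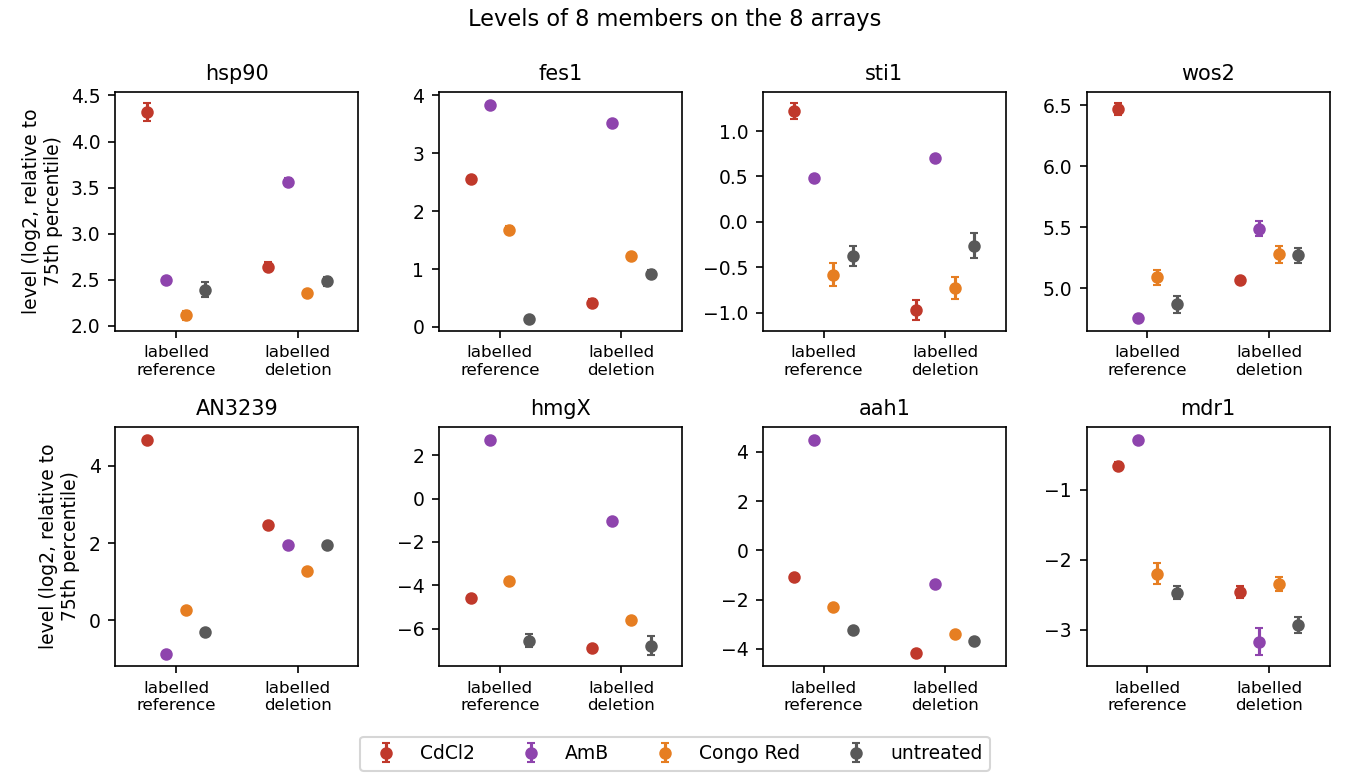
Level (log2, relative to the array's 75th percentile) of 8 members on the 8 arrays, with the reference-labelled arrays left and the deletion-labelled ones right, and bars for the SD between the spots of a probe. For hsp90 and wos2 the CdCl2 array labelled reference stands alone (4.32 and 6.47), and for fes1, hmgX and aah1 an AmB array is the highest.

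The remaining 4 members with a symbol have other roles or none stated here. The gene mdr1, of the ABC family of multidrug transporters, was at -0.66, -0.29, -2.20 and -2.47 (CdCl2, AmB, Congo Red, untreated) on the reference-labelled arrays, and at -2.46, -3.17, -2.35 and -2.93 on the deletion-labelled ones. Its CdCl2 and AmB arrays labelled reference were therefore both above the other 6. The gene aah1, named after the adenine deaminase of yeast, was at -1.06, 4.49, -2.28 and -3.22 under the label reference and at -4.15, -1.36, -3.39 and -3.67 under the label deletion. The gene hmgX, of the tyrosine breakdown cluster, was at -4.59, 2.71, -3.81 and -6.56 under the label reference and at -6.91, -1.02, -5.58 and -6.78 under the label deletion. For both genes each AmB array was the highest of its strain label, and the CdCl2 array labelled reference was below the AmB array labelled reference. Changes with CdCl2 were 1.81 and 0.48 for mdr1, 2.16 and -0.47 for aah1, 1.97 and -0.13 for hmgX, and 2.59 and 0.29 for ergS (labels reference and deletion). The ergS probe was well above background on 5 of the 8 arrays.

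The members with the largest changes that were well above background on all 4 CdCl2 and untreated arrays have no symbol, and no role is given to them here. AN3239 changed by 4.99 under the label reference and 0.53 under the label deletion. It was at 4.68, -0.86, 0.26 and -0.31 (CdCl2, AmB, Congo Red, untreated) on the reference-labelled arrays, and at 2.47, 1.95, 1.28 and 1.94 on the deletion-labelled ones. The untreated array labelled deletion thus already stood above the untreated array labelled reference, and the CdCl2 array labelled reference was above all others. AN0656 had a change of 4.97 and 0.55, with levels of -0.02 after CdCl2, 3.44 after AmB, -3.92 after Congo Red and -4.99 untreated under the label reference. Under the label deletion its levels were -5.77, -3.76, -5.17 and -6.31.

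AN3162 and AN0401 differed from these in that the deletion-labelled arrays hardly varied. AN3162 was at -0.18, -2.05, -3.19 and -3.86 under the label reference and between -3.84 and -3.67 on the 4 arrays labelled deletion. AN0401 was at 2.46, 3.09, 0.08 and -0.47 under the label reference and between -1.26 and -0.99 under the label deletion. The other 8 of these 12 genes, AN7874, AN7944, AN9004, AN2471, AN6668, AN3429, AN5410 and AN0617, changed by 3.02 (AN0617) to 3.94 (AN7874) under the label reference and by -1.22 (AN0617) to -0.06 (AN9004) under the label deletion.

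For 37 members the untreated array labelled reference was not well above background, so that the rise is a lower bound. The bound sets the CdCl2 level against the higher of the probe's own level and the lowest level of any probe well above background on the untreated array. The bounds were at least 1.91-fold to at least 20.0-fold with a median of 5.06-fold, and for 6 members the bound lies under the threshold of 3-fold. Those with the largest measured differences, which have no order below background, were AN7598 (at least 14.7-fold), AN6409 (at least 16.9-fold), AN5056 (at least 20.0-fold), AN2783 (at least 9.78-fold) and AN12302 (at least 11.5-fold). By its bound AN10938 (at least 18.9-fold) exceeds all of these but AN5056, and AN7614 (at least 13.0-fold) exceeds the last 2. In all, 21 members were well above background only on the CdCl2 array labelled reference of the 4 arrays. The rule itself asks for a probe well above background on that array. The shares of all genes to match the 37 and the 21 were not counted, so both counts are a description. The SD between the spots of a probe on that array had a median of 0.07, and it exceeded 1 for AN2706 (2.64), AN2640 (2.38) and AN10565 (1.32). These 3 were not well above background when untreated, and their bounds were at least 2.57-fold, 1.91-fold and 3.36-fold.

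AN5056 was high on all arrays labelled deletion. Its levels were -3.33, 3.85, -5.84 and -8.12 (CdCl2, AmB, Congo Red, untreated) on the reference-labelled arrays and 3.82, 6.01, 4.17 and 3.63 on the deletion-labelled ones. The 4 arrays labelled deletion thus stood at 3.63 or above, as did AmB alone under the label reference, and the level after CdCl2 under the label reference was far below that of the untreated array labelled deletion. Over all members, the untreated array labelled deletion was at or above the CdCl2 array labelled reference for 9 genes, and for 114 it was nearer to the untreated array labelled reference. The matching shares over all genes were not counted. Untreated, the level was lower by 1 or more under the label reference than under the label deletion for 37 members (24.8%), where 9.02% of the 7939 genes were. It was higher by 1 or more for 14 and within 1 for 98. Since the untreated array labelled reference enters the rule with a negative sign, a low value there favours being chosen.

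The members' levels on the arrays of the other treatments were set beside these. On the AmB arrays, 88 of 123 members well above background there (71.5%) stood 3-fold or more above untreated under the label reference, against 22.3% of 7923 genes, with a median of 2.62 over all members. Under the label deletion, 32 of 100 (32%) did, against 10.6% of 7689 genes, with a median of 1.03. After Congo Red the counts were 17 of 122 (13.9%) under the label reference, against 2.49% of 8408 genes, and 2 of 114 (1.75%) under the label deletion, against 1.06% of 8146 genes. These contrasts share the untreated arrays with the rule, and a low untreated value raises each of them, so the shares are not independent of the choice.

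The same values were taken for the 89 members well above background on all 8 arrays. Their median changes under the label reference were 2.42 after AmB and 0.57 after Congo Red, and those under the label deletion were 1.04 and 0.10. On the AmB array, 59 stood 3-fold or more above untreated under the label reference, where 15.9% of the 7105 genes did, and 24 under the label deletion, where 7.67% did. The AmB arrays were dimmer than the rest, with a 75th percentile of the signal of 335.7 under the label reference and 261.8 under the label deletion, against 1062.1 to 1876 on the other 6 arrays, and the part of this in the AmB values was not tested. Of the 149 members, 66 had their highest level of the 8 arrays on the AmB array labelled reference, 49 on the CdCl2 array labelled reference and 26 on the AmB array labelled deletion. The matching shares over all genes were not counted, and the rule itself favours a high CdCl2 array labelled reference. These counts are therefore a description and no trait particular to the members.

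**Figure D4:**
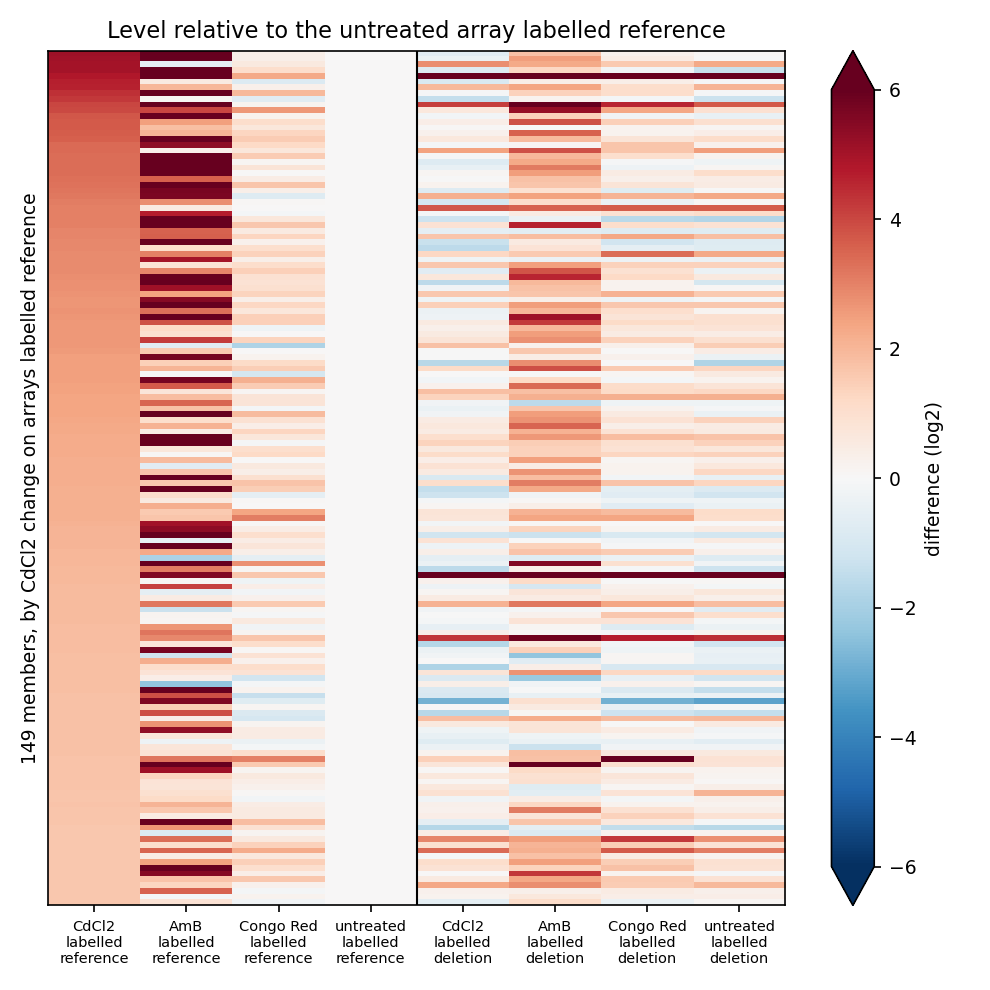
Each row is a member and each column an array, with the colour giving its level minus that on the untreated array labelled reference (log2), cut off at -6 and 6. The columns labelled reference stand left of the deletion-labelled ones, and the CdCl2 and AmB columns labelled reference hold the highest level for 49 and 66 of the 149 members. The matching shares over all genes were not counted.

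A baseline that the rule did not use is the Congo Red array of the same strain label, which lies on the other slide. Against it the CdCl2 array labelled reference was higher for 142 members and by 3-fold or more for 85, where 2.22% of the 7939 genes were, with a median of 1.65. Under the label deletion the CdCl2 array was higher than the Congo Red array for 37 members, by 3-fold or more for 0, where 0.684% of the 8478 genes were, with a median of -0.30. The shares of all genes that were merely higher than on the Congo Red array were not counted. The CdCl2 arrays themselves were used by the rule, so these values are a description.

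The 4 AmB and Congo Red arrays were not used by the rule, and on them the members could be tested. A model with strain label and treatment was fitted with limma to 8349 genes, 122 of them members, and p-values were adjusted by the Benjamini-Hochberg method. The spread is the departure of 4 arrays from additivity, with 1 residual degree of freedom, and not the spread between cultures. Each strain label and each treatment had 1 array on each slide. The other 27 members were well above background on fewer than 2 of these arrays and were not tested.

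Between AmB and Congo Red over both strain labels, 15 members (12.3% of those tested) were higher after AmB and 1 (0.82%) was lower, against 5.9% and 1.2% of all genes tested. The median difference was 1.51 over the members and -0.02 over all genes. Counted over the members and genes well above background on all 8 arrays, 11 members (12.4%) were higher, against 4.11%, and 1 was lower, against 0.774%. AN7200 was at 3.25 and -0.08 on the AmB arrays labelled reference and deletion, and at -5.00 and -5.60 on the Congo Red arrays, a difference of 6.89 ± 0.69 (SE; limma adjusted p = 0.00504). AN3197 differed by 6.41 ± 0.93 (limma adjusted p = 0.0139) and AN2471 by 5.68 ± 0.98 (limma adjusted p = 0.0241).

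Of the members with a symbol, hmgX was higher after AmB by 5.54 ± 0.59 (limma adjusted p = 0.0058) and fes1 by 2.22 ± 0.45 (limma adjusted p = 0.0362). For both genes the 2 AmB arrays lay above the 2 Congo Red arrays. The call of fes1 was lost with quantile normalization (1.90, limma adjusted p = 0.0772). The other chaperone members did not pass: hsp90 differed by 0.80 ± 0.47 (limma adjusted p = 0.322), sti1 by 1.25 ± 0.45 (limma adjusted p = 0.143) and wos2 by -0.06 ± 0.46 (limma adjusted p = 0.942). AN2177 was the member that was lower, at -0.16 and -1.35 on the AmB arrays and 1.91 and 1.12 on the Congo Red arrays (labels reference and deletion), a difference of -2.27 ± 0.45 (limma adjusted p = 0.0355).

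Between the strain labels on the same 4 arrays, no member was higher under the label reference in the limma test, where 0.275% of all genes were. At an unadjusted p under 0.05, 34 members (27.9%) were higher and 9 (7.38%) lower, against 6.28% and 4.32% of all genes. With normexp background correction 18 members (14.8%) passed after adjustment, against 1.35% of all genes. Lower were 2 members (1.64%), against 0.443% of all genes. Among members well above background on all 8 arrays, 0 were higher, against 0.183% of such genes, and 1 was lower, against 0.239%. AN8330 read -6.68 and -7.21 on the AmB and Congo Red arrays labelled reference, where it was not well above background, and was at -3.68 and -3.61 on the deletion-labelled ones. It was at least 6.93-fold lower under the label reference, with a fitted difference of -3.30 ± 0.46 (limma adjusted p = 0.0434). It entered the fit through the deletion-labelled arrays alone, so its fitted difference and p rest on values not above background. AN7892 was at 2.30 and 1.09 on the AmB and Congo Red arrays labelled reference, and at 5.25 and 4.13 on the deletion-labelled ones, a difference of -3.00 ± 0.45 (limma adjusted p = 0.0478). Both calls lie near the threshold: with no filter on dim probes the limma adjusted p was 0.0508 for AN8330 and 0.0553 for AN7892. AN8330 was also lost with normexp (-0.23, limma adjusted p = 0.954) and in the value table (-1.77, limma adjusted p = 0.0965), and AN7892 with quantile normalization (limma adjusted p = 0.0547) and with outlier-flagged spots kept (limma adjusted p = 0.0539).

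**Figure D5:**
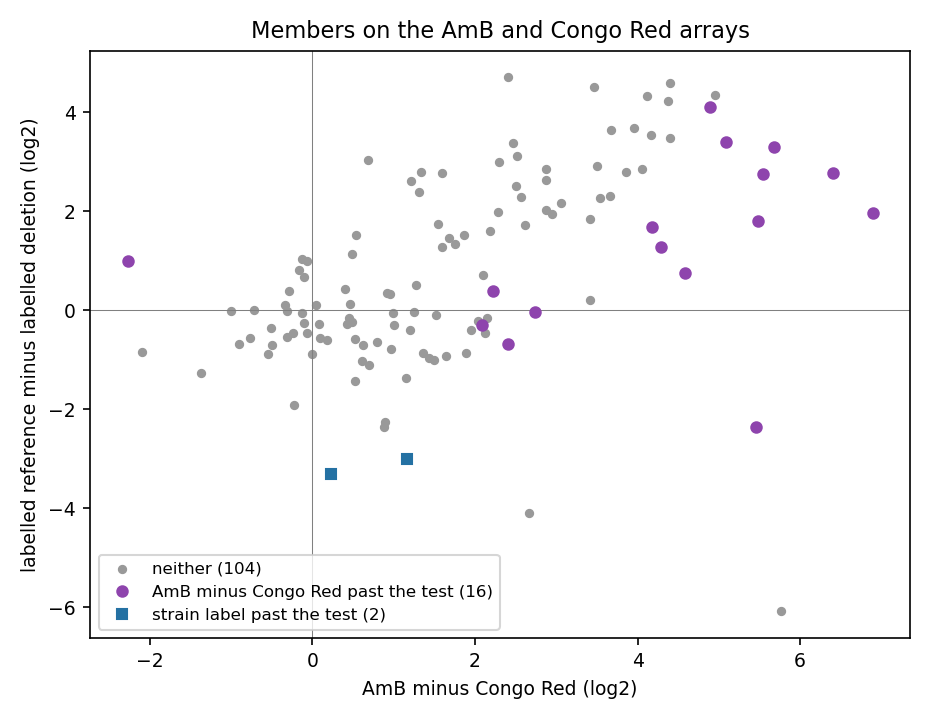
Each point is one of the 122 members fitted, with the difference AmB minus Congo Red over both strain labels (log2) on the horizontal axis and the difference label reference minus label deletion over both treatments (log2) on the vertical axis. Of the 16 members past the first test 15 lie right of 0, and the 2 past the second lie below 0.

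The 43 genes past 3-fold with CdCl2 under the label reference that were not members form the nearest set for comparison. Of these, 31 were fitted: 6 (19.4%) were higher after AmB than after Congo Red, against 5.9% of all genes tested. Lower were 2, against 1.2% of all genes. None passed between the strain labels, where 0.275% of all genes were higher and 0.443% lower under the label reference. At such shares, none among 31 genes is not a result about this set. The difference in these shares between the 43 genes and the members was not tested. Among the 43 genes, 16 were not well above background on the untreated array labelled reference, against 37 of the 149 members. The matching share over all genes was not counted.

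Lists of other stress pathways were made from the genes with a symbol in the table. None of the lists for the endoplasmic reticulum, antioxidants, sulfur uptake, metal transport, the proteasome, the SakA pathway, trehalose and glycerol, siderophores, autophagy, conidia and ribosome biogenesis held a member. These lists held 4 to 22 genes each, and 8 of the 776 genes with a symbol were members. A list of that size without a member is therefore not a result about its pathway. Nearest to the threshold were sC (ATP sulfurylase), with changes of 1.32 and 0.47 under the labels reference and deletion, and the endoplasmic chaperone genes bipA (1.30 and 0.91) and clxA (calnexin, 1.28 and 0.32). All 19 genes of the ubiquitin and proteasome list were above 0 under the label reference, with a median of 0.23, where 47.2% of the 7939 genes were above 0. Under the label deletion 3 of the 19 were above 0, with a median of -0.11, where 43% of the genes were. With that pair exchanged, 16 would be above 0, with a median of 0.11. The highest was cdc48, a segregase that extracts ubiquitinated proteins, at 1.13 and -0.44.

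The medians of these lists without members ran from -0.68 (metal transport) to 0.77 (endoplasmic reticulum and sulfur) under the label reference and from -0.41 (siderophores) to 0.62 (ribosome biogenesis) under the label deletion. The zinc transporter genes zrfC and zrfB had changes with CdCl2 of -1.51 and -1.46 under the label reference. Their changes under the label deletion were -0.45 and 0.01. The 22 genes of ribosome biogenesis had a median of -0.02 under the label reference and 0.62 under the label deletion, where 21 were above 0. The sign of that last value turns if the pair of arrays labelled deletion is exchanged. None of 8 marker genes of conidia and conidiophores, which a mycelial culture can hold, was a member, and 4 of the 8 were well above background on all 8 arrays. Their summed linear level, relative to the 75th percentile, was 4.42 to 11.0 under the label reference and 0.724 to 1.39 under the label deletion. This sum weighs the markers with the highest levels most, which on the untreated array labelled reference were ivoB (2.05) and rodA (1.03). The regulators brlA, abaA and wetA were between -7.39 and -2.48 on all 8 arrays, while the spore wall gene rodA was at 1.03 to 1.70 under the label reference and -2.15 to -0.61 under the label deletion. The gene ivoB was at -1.26 to 2.90 under the label reference and -2.65 to -1.60 under the label deletion. Not every marker was higher under the label reference. Untreated, pksP was at -3.05 and -2.59, and after AmB yA was at -3.61 and -1.66 (labels reference and deletion). The part of these markers in the members' values was not tested.

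The members lay on all 8 chromosomes of the RefSeq assembly ASM1142v1, with 11 to 22 on each. Of the 142 that were placed, 14 formed 7 pairs of direct neighbours and no longer run. Of the 284 genes next to a member, 14 (4.93%) were members, against 1.46% of all placed genes. In the pair AN3238 and AN3239 the CdCl2 level under the label reference was at least 5.61-fold higher for AN3238, which was not well above background when untreated. AN3239 changed by 4.99 on the log2 scale, which is 31.8-fold. In the pair AN2471 and AN2472 the change of AN2471 was 3.35 on the log2 scale, which is 10.2-fold. AN2472, also not well above background when untreated, was at least 10.3-fold higher. On the AmB array labelled reference AN2471 stood 8.69 above untreated on the log2 scale and AN2472 at least 312-fold above, while AN3239 changed by -0.56 and AN3238 was not well above background on either array. The median length of the members' genes was 1278 bases, against 1575 bases for all placed genes.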

How the data were processed

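The deposited scanner files give a background-subtracted processed signal for each spot, an intensity on a linear scale, with flags for outliers and for spots well above background, per the file headers. The submitters' processing notes name Agilent Feature Extraction 12.0.3.1 as the software. The authors also deposited a table of log2 values, whose scaling and centring are not given in the sources used here and whose column medians were 9.24 to 9.26.

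Control and outlier-flagged spots were left out (1.46% to 1.9% per array), the mean log2 signal over the spots of each probe was taken, and log2 of the array's 75th percentile was subtracted. Per array, 7689 to 8478 of 10550 probes were well above background. The number of arrays limits the precision. Names came from the RefSeq table of ASM1142v1, which matched 9697 probes and gave 776 symbols. Genes without a symbol were placed in no list. Tests used limma 3.58.1 in R 4.3.3 with a Benjamini-Hochberg threshold of 0.05, on genes well above background on at least 2 of 4 arrays. The fit was also tested on simulated data with independent normal noise and no effect of the slide. That run cannot show how the p-values behave on these arrays. The prior degrees of freedom were 5.65. The normexp alternative (offset 50) used the median in place of the mean signal, which the files do not hold. Slides were read from the scanner files' identifiers. No promoter sequence was analysed here.

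The members and gene lists were chosen with earlier results of these data known. Named were members with a symbol, the 12 largest changes among those well above background on all 4 CdCl2 and untreated arrays, the 5 largest among those not well above background on the untreated array labelled reference, genes next to a threshold, list genes, and the 3 largest in each direction of a test. Genes of pairs, of unequal spots, of large bounds or with steady levels, AN5056's separate description, and the list genes that are not members were chosen after their values were seen.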

Additional observations from a re-analysis of the deposited data

Results flagged for a closer look

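Among the named members well above background on all 8 arrays, 6 had a difference between the AmB and Congo Red arrays of opposite sign under the strain labels. With 1 array per combination, the difference between these responses (an interaction) was not tested. Under the label reference the AmB array lay on slide 2 and the Congo Red array on slide 1, and under the label deletion the reverse. Slide and the difference between these responses therefore cannot be told apart. The shares of the named members and of all genes with opposite signs were not counted. Some of the differences below were small, such as both of wos2 and that of AN3162 under the label deletion. With 1 array per combination the signs of such small differences are not resolved. The transporter gene mdr1 differed by 1.90 under the label reference and by -0.82 under the label deletion. The cochaperone gene wos2 differed by -0.33 under the label reference and by 0.21 under the label deletion. AN7944 had the widest gap, with 4.17 under the label reference and -1.56 under the label deletion. AN3162 was at 1.14 under the label reference and -0.16 under the label deletion. The opposite order was seen for AN3239, at -1.12 under the label reference and 0.66 under the label deletion, and for AN9004, at -0.38 under the label reference and 2.15 under the label deletion.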

How the results depend on the processing

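The rule found 149 genes, and 72 with normexp (65 shared), 89 in the value table (63 shared), 319 with a rise of 1 or more and 88 with a rise of 2 or more. Under the other settings tried it found 104 to 172. With the CdCl2 and untreated arrays labelled deletion exchanged it found 172, of which 129 are members, and with the Congo Red array as the baseline of the arrays labelled reference, chosen after seeing the data, it found 135, of which 85 are. Of the 30 named members, 19 kept a change of 3-fold or more with normexp (lowest 0.67), 28 with quantile normalization (lowest 1.53) and 20 in the value table (lowest 0.72), and no sign turned. The 15 members higher after AmB than Congo Red became 83 with normexp, 24 where all 4 arrays had to be above background, 43 with no filter and 23 in the value table. Genes higher numbered 493, and 2779 with normexp, 317 with quantile normalization and 2177 with no filter. The 1 member lower became 2 with quantile normalization, and the 100 genes lower became 209 with normexp, 334 with no filter and 224 in the value table. Between strain labels, the 0 members higher became 18 with normexp. The 2 lower became 4 with normexp, 1 with quantile normalization, 1 with flagged spots kept, 0 with no filter and 1 over members above background on all 8 arrays, a count added after seeing the data. The 23 genes higher became 113 with normexp, 15 with all 4 arrays above background and 35 in the value table, and the 37 lower became 56, 22 and 61 under these settings and 24 with no filter. The cause of these shifts was not tested. No paired analysis was possible because the labels carry no replicate numbers and each combination has 1 array. Leaving out an array, or adding the slide as a block, leaves no residual degrees of freedom in the fit.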
